A study of Homo sapiens with 18 samples.

Results

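The genes described here are 34 genes of cholesterol synthesis, of its regulation by sterol regulatory element binding proteins (SREBPs), of fatty acid synthesis and of sterol efflux and transport. They were chosen by symbol as genes of these pathways, and all 34 were found among the 26475 genes of the deposited count table. RNA-seq was measured in 2 established human lines of uveal melanoma, called Mel92.1 and MP41, each treated for 48 h with DMSO, the solvent control, or with 1 µM of UNC0642 or A366, 2 small-molecule inhibitors of the histone methyltransferase EHMT2 (G9a). The study states that both inhibitors can act on EHMT1 as well. Each of the 6 groups held 3 libraries, 18 in all, and the labels name no engineered allele and no other agent in any of them. The study's methods describe its experiments in general as having biological replicates, while the labels do not say how these libraries were replicated, so the p-values measure the spread between these libraries. Each line is a single established line, and a difference between them is a difference between those lines.

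Cells make cholesterol from acetyl-CoA through the mevalonate pathway, which ends in squalene, and through a series of sterol intermediates. When membrane sterols are low, SCAP escorts the SREBPs from the endoplasmic reticulum to the Golgi, where they are cut and released to switch on the genes of this pathway and of fatty acid synthesis, and INSIG1 holds SCAP back when sterols are high. When sterols accumulate, the liver X receptors (LXRs) switch on efflux genes such as ABCA1 and ABCG1.

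Promoter sequences are shown because one element, the sterol regulatory element bound by SREBPs, is a known route of control of these genes. RefSeq promoters of 300 bases (250 before and 50 after the start, build GRCh38.p14) were found for 29 of the 34 genes. On either strand, the letters TCACNCCAC were in the promoter of 1 of those 29 genes, SREBF2, against 1.39% of the 27305 genes with a listed promoter. The inverted CCAAT box ATTGG was in 21 of 29 (72.4%) against 39.7%, and the E-box CACGTG in 5 of 29 (17.2%) against 8.77%. These shares are descriptions, a match is not a bound site, and no match says only that these letters are not in that window. Below are the promoters of SREBF2 (chr22:41832855-41833154, plus strand), SCD (chr10:100346983-100347282, plus strand), ELOVL6 (chr4:110198566-110198865, minus strand) and TM7SF2 (chr11:65111622-65111921, plus strand), read 5′ to 3′ on the gene's strand. They were picked as the gene with the sterol element and then those with the smallest adjusted p with an inhibitor among those with a listed promoter. Capitals mark the sterol element (bases 118 to 126 in SREBF2, TCACCCCAC) and the CCAAT box in either orientation. ELOVL6 held none of the 3 motifs.
SREBF2: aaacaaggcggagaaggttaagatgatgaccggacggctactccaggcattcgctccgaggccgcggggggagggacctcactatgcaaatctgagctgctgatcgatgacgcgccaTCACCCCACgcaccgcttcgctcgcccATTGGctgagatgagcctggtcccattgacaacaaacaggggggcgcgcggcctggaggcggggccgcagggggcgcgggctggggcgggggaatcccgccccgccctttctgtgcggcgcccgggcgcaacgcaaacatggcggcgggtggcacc
SCD: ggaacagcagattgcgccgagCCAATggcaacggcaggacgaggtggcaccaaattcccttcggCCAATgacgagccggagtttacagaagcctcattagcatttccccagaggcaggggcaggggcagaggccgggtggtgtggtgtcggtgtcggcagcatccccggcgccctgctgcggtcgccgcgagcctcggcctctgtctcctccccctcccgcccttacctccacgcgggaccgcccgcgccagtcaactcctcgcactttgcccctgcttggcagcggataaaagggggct
ELOVL6: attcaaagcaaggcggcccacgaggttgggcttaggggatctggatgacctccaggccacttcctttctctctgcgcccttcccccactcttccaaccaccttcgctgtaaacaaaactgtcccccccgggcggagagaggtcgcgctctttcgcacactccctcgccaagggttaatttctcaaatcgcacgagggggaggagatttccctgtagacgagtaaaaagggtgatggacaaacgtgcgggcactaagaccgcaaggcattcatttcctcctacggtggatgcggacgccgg
TM7SF2: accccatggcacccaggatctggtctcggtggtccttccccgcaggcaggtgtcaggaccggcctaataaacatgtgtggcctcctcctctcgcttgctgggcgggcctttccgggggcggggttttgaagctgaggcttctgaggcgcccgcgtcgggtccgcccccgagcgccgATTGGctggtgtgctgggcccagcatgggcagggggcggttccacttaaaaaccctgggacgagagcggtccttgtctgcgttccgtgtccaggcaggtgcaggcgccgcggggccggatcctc

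Libraries held between 23601156 and 62941462 counts (median 41955693), and ribosomal RNA genes took 3.31% to 32.8%, the most in Mel92.1 UNC0642 replicate 1, which also had the smallest total. All 7 melanocyte markers examined, such as MLANA and PMEL, were at 1 CPM (the count scaled to library size) or more in both lines (summed 21000 to 24400 CPM in Mel92.1 and 15000 to 16200 in MP41). Of the markers of other cells, 1 of 4 leukocyte (NCAM1) and 1 of 3 fibroblast (LUM) markers and 0 of 2 endothelial and 0 of 2 epithelial markers did so in every library. EHMT2 mRNA was called higher with A366 in MP41 (log2 fold change 0.23 ± 0.061, adjusted p = 0.00936) and was not called in the other inhibitor comparisons with DMSO, whose log2 differences ran from -0.19 to -0.01. EHMT1 mRNA was called in none of the inhibitor comparisons with DMSO (log2 -0.12 to 0.09).

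Of the 6 A366 libraries, 4 went against their labels. In the libraries labelled A366 replicates 2 and 3 of either line, genes expressed in the labelled line alone (27 for Mel92.1 and 33 for MP41) stood at 0.0233% to 0.0677% of their DMSO level, while the genes of the other line stood at 96.5% to 112%. Among the other 14 libraries, genes of the labelled line were at 90.9% to 114% and those of the other line at 0.0138% to 0.387%. The genes were chosen on the DMSO libraries, whose own values were thus set by that choice, unlike those of the inhibitor libraries. These 4 libraries were therefore placed in the other line, as the study's own expression table places them, and results with A366 are also given with the libraries as labelled and with the 4 left out. With them left out, each A366 group is a single library that is assumed to vary like the other groups. A366 values by library are given in the order replicate 1 of the line, then the libraries labelled replicates 2 and 3 of the other line.

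With DMSO alone, the genes of sterol and fatty acid synthesis were mostly higher in Mel92.1 than in MP41. Of the 34 genes, 28 were called higher and 5 lower in Mel92.1 at an adjusted p under 0.05 (edgeR quasi-likelihood test in a fit of all 18 libraries, Benjamini-Hochberg adjustment over 15799 genes). Among all genes tested, 69.4% were called, 34.5% higher and 34.8% lower. The median log2 difference was 1.31 over the 34 genes and -0.022 over all genes tested. The genes took 0.594% to 0.868% of all counts in the 9 libraries placed in Mel92.1, lowest in the library with the most ribosomal RNA, and 0.255% to 0.335% in the 9 of MP41. The study's methods name a medium with more serum for MP41 than for Mel92.1, while the labels name the same medium for both, so the line and its medium cannot be told apart in this comparison.

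All 7 genes of the early and mevalonate steps were higher in Mel92.1, with a median log2 difference of 1.77. MVD, the mevalonate pathway's decarboxylase, stood at 45.7, 56.8 and 60.5 CPM in Mel92.1 and at 5.54, 5.46 and 5.56 CPM in MP41 with DMSO. HMGCS1, which makes HMG-CoA from acetoacetyl-CoA, stood at 437, 364 and 348 CPM against 41.4, 41.2 and 44.2 CPM. The lines did not overlap for either gene, and the differences were 9.84-fold for MVD (log2 3.30 ± 0.16, SE, adjusted p = 6.72e-12) and 9.07-fold for HMGCS1 (log2 3.18 ± 0.11, adjusted p = 7.06e-14). IDI1, an isomerase of the isoprenoid building blocks, differed by a log2 of 2.20 ± 0.058, FDPS, which makes farnesyl diphosphate, by 1.77 ± 0.088, and MVK, mevalonate kinase, by 1.71 ± 0.13. PMVK, phosphomevalonate kinase, at 1.12 ± 0.15, and ACAT2, the cytosolic thiolase, at 0.45 ± 0.11, had the smallest differences of the 7.

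Among the 11 genes from squalene to cholesterol, 9 were higher and 2 lower in Mel92.1, with a median log2 difference of 1.41. FDFT1, squalene synthase, ran from 676 to 718 CPM in Mel92.1 and from 80.9 to 85.3 CPM in MP41 (log2 3.08 ± 0.072, adjusted p = 6.84e-16). LSS, lanosterol synthase, ran from 175 to 177 CPM against 25.8 to 27.1 CPM (log2 2.74 ± 0.056), and MSMO1, a sterol methyl oxidase, from 117 to 123 CPM against 17.5 to 19.6 CPM (log2 2.72 ± 0.088). SQLE, squalene epoxidase, was closer between the lines, at 519 to 567 CPM in Mel92.1 and 373 to 377 CPM in MP41 (log2 0.53 ± 0.053). DHCR7, a reductase of the last steps, differed by a log2 of 2.47 ± 0.10, EBP, the sterol isomerase, by 1.69 ± 0.13, HSD17B7, a sterol ketoreductase, by 1.41 ± 0.14, NSDHL, a sterol dehydrogenase, by 1.32 ± 0.12, and CYP51A1, lanosterol demethylase, by 0.64 ± 0.072.

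The 2 genes of this block that ran the other way were TM7SF2 and SC5D. TM7SF2, a sterol reductase, stood at 4.13, 4.84 and 5.00 CPM in Mel92.1 and at 11.2, 11.5 and 8.996 CPM in MP41 (log2 -1.18 ± 0.27, adjusted p = 0.000774). SC5D, the sterol desaturase that acts late in the pathway, ran from 59.7 to 71.6 CPM against 109.9 to 116 CPM (log2 -0.78 ± 0.077, adjusted p = 7.1e-08). In both genes every MP41 library was above every Mel92.1 library with DMSO.

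All 4 regulators of the SREBP pathway were higher in Mel92.1. INSIG1, itself an SREBP target, had the largest difference of the 4, at 195, 191 and 181 CPM in Mel92.1 and 19.1, 21.9 and 19.4 CPM in MP41, a 9.40-fold difference (log2 3.23 ± 0.078, adjusted p = 8.95e-16). SREBF2, which encodes the SREBP tied most to sterol genes, stood at 365.6, 324 and 332 CPM against 114, 109 and 115 CPM (log2 1.59 ± 0.065). SREBF1, which encodes the SREBPs tied more to fatty acid genes, stood at 218, 213 and 219 CPM against 103, 103 and 98.9 CPM (log2 1.09 ± 0.064), and SCAP at 108, 109.8 and 116 CPM against 48.1, 51.0 and 48.3 CPM (log2 1.18 ± 0.082). The mRNA difference of the transcription factors was thus smaller than that of INSIG1, and SREBP protein or its cleavage was not measured here.

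The 7 genes of fatty acid synthesis and desaturation were all higher in Mel92.1 (median log2 difference 1.30). FASN, fatty acid synthase, stood at 1611, 1267 and 1314 CPM in Mel92.1 and at 269, 266 and 267 CPM in MP41 (log2 2.38 ± 0.086, adjusted p = 1.35e-13). FADS2, a fatty acid desaturase, ran from 41.9 to 45.7 CPM against 8.31 to 8.78 CPM (log2 2.37 ± 0.086). SCD, the stearoyl-CoA desaturase, was the member with the highest level per kilobase of transcript in Mel92.1 (277 CPM per kilobase) and the second highest in MP41 (112, after SQLE at 127), and it differed by a log2 of 1.30 ± 0.083. FADS1, another fatty acid desaturase, differed by 1.34 ± 0.076, ACACA, acetyl-CoA carboxylase, by 1.18 ± 0.13, ACLY, ATP citrate lyase, by 0.88 ± 0.083 and ELOVL6, a fatty acid elongase, by 0.70 ± 0.11.

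The efflux and transport genes did not share that direction. ABCG1, a sterol exporter and LXR target, had 4, 2 and 3 counts in the Mel92.1 DMSO libraries and 58, 65 and 93 counts in MP41 (log2 -4.43 ± 0.47, adjusted p = 1.84e-07). MYLIP, the LXR-induced ligase that removes lipoprotein receptors, at a log2 of -0.42 ± 0.13 (adjusted p = 0.00896), and NPC1, which exports cholesterol from lysosomes, at -0.37 ± 0.089 (adjusted p = 0.00139), were called lower, and both lost the call when the fit held an offset for transcript length and GC content (log2 -0.32, adjusted p = 0.174, and log2 -0.22, adjusted p = 0.108). STARD4, a sterol carrier and SREBP target, was higher (log2 0.86 ± 0.15, adjusted p = 5.7e-05). ABCA1, the main cholesterol exporter of the plasma membrane, stood at 5.26, 4.02 and 3.97 CPM against 4.63, 5.88 and 5.32 CPM, with overlapping libraries (log2 -0.25 ± 0.26, 95% interval -0.76 to 0.25, adjusted p = 0.39). With that offset, 31 of the 34 genes were called, all of those 28 higher, beside 64.9% of all genes.

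**Figure D1:**
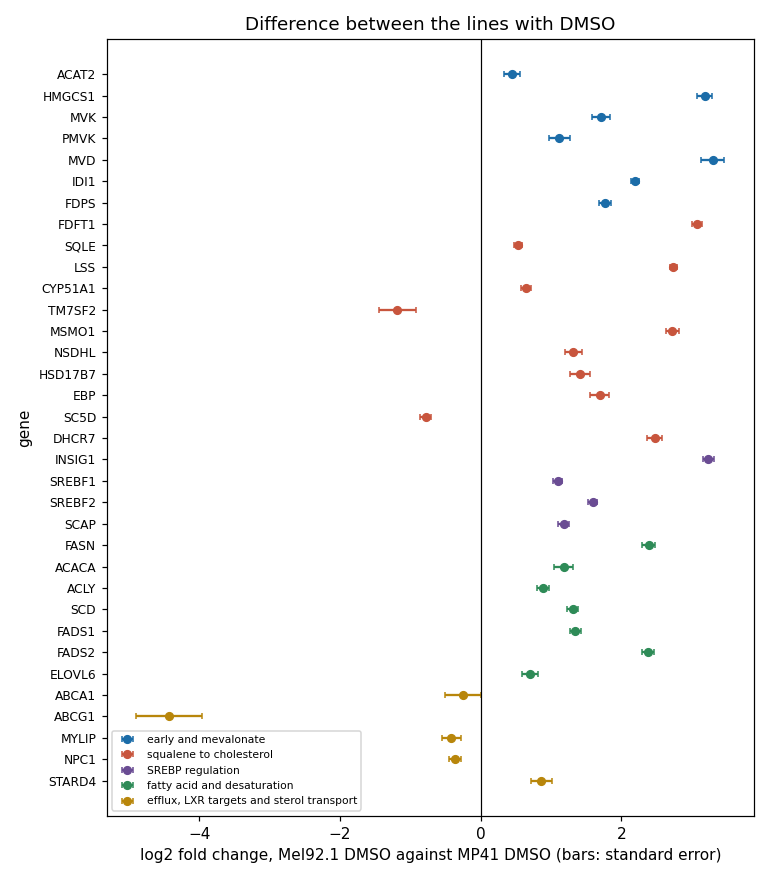
Log2 fold change of each of the 34 genes between Mel92.1 and MP41 with DMSO (x axis), with the standard error as bars and colours for the 5 blocks of genes. The synthesis and SREBP genes lie to the right of 0 apart from TM7SF2 (-1.18) and SC5D (-0.78), and ABCG1 (-4.43) lies farthest to the left.

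Few of these genes were called with UNC0642 in either line. In Mel92.1, 1 of the 33 genes tested was called higher (0.551% of all genes tested) and 0 lower (0.138%), beside 0.688% of 14528 genes called in either direction by edgeR. ABCG1 was not tested in Mel92.1 because it was too low. The gene called was INSIG1, at 195, 191 and 181 CPM with DMSO and 242, 234 and 236 CPM with UNC0642, with no overlap between the groups (log2 0.32 ± 0.057, adjusted p = 0.0367). It was not called in any of the 9 fits that left out 1 library (log2 0.29 to 0.35) nor with the 4 exchanged libraries left out. The libraries did not overlap for 8 genes that were higher and 2 that were lower, beside 15.4% of all genes tested. The median log2 difference was 0.12 over the 33 genes and -0.022 over all.

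DESeq2 and limma voom each called 3 genes here, INSIG1 and MSMO1 higher and FADS2 lower, beside 384 and 413 of all 14528 genes. By edgeR without the length and GC offset, the values of other synthesis genes of Mel92.1 were small and did not pass the test. MSMO1 had a log2 difference of 0.28 ± 0.066 (adjusted p = 0.144), ACAT2 of 0.31 ± 0.099 (adjusted p = 0.326), LSS of 0.14 ± 0.054 (adjusted p = 0.448) and FDFT1 of 0.13 ± 0.057 (adjusted p = 0.5). FADS2 had the most negative value of the 33, -0.36 ± 0.091 (adjusted p = 0.171). SREBF2 was at 365.6, 324 and 332 CPM with DMSO and 320.4, 349 and 356 CPM with UNC0642, a log2 difference of 0.00 with a 95% interval of -0.14 to 0.14, and SREBF1 at -0.03 with an interval of -0.15 to 0.09. With the offset for length and GC content 0 of the 33 genes were called, beside 45 of all 14528 genes, but values shifted upward. They were then 0.49 for INSIG1, 0.38 for MSMO1, 0.51 for ACAT2, 0.34 for LSS, 0.31 for FDFT1 and -0.17 for FADS2. SREBF2 was at 0.20 and SREBF1 at 0.21 with the offset, above the intervals given here.

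In MP41, 0 of 34 genes were called with UNC0642 by edgeR (0.241% of 14956 genes). DESeq2 called 1 and limma voom 1, beside 180 and 154 of all 14956 genes. At an unadjusted p under 0.05 edgeR had 3, beside 8.80% of all genes. These were SREBF1, FADS2 and MSMO1. SREBF1 stood at 103, 103 and 98.9 CPM with DMSO and 127, 121 and 126 CPM with UNC0642, with no overlap (log2 0.29 ± 0.070, adjusted p = 0.169), and it was called in 6 of 20 alternative fits, among them that without the 4 exchanged libraries (adjusted p = 0.0138). FADS2 had a log2 difference of -0.25 ± 0.10 (adjusted p = 0.481) and MSMO1 of -0.26 ± 0.10 (adjusted p = 0.496). INSIG1 was at 19.1, 21.9 and 19.4 CPM with DMSO and 17.5, 19.996 and 18.4 CPM with UNC0642 (log2 -0.12 ± 0.092, adjusted p = 0.805). The libraries did not overlap for 4 genes that were higher and 5 that were lower, beside 18.8% of all genes tested.

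No difference between the lines in the UNC0642 response was called by edgeR among the 34 genes (0.601% of all genes called). An unadjusted p under 0.05 was found for 9, beside 9.79% of all genes. DESeq2 and limma voom each called 3, beside 315 and 243 of all 15799 genes. The difference was 0.53 ± 0.12 for MSMO1 (adjusted p = 0.0545), 0.44 ± 0.10 for INSIG1 (adjusted p = 0.0719) and -0.32 ± 0.089 for SREBF1 (adjusted p = 0.146), each as the log2 response of Mel92.1 minus that of MP41.

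**Figure D2:**
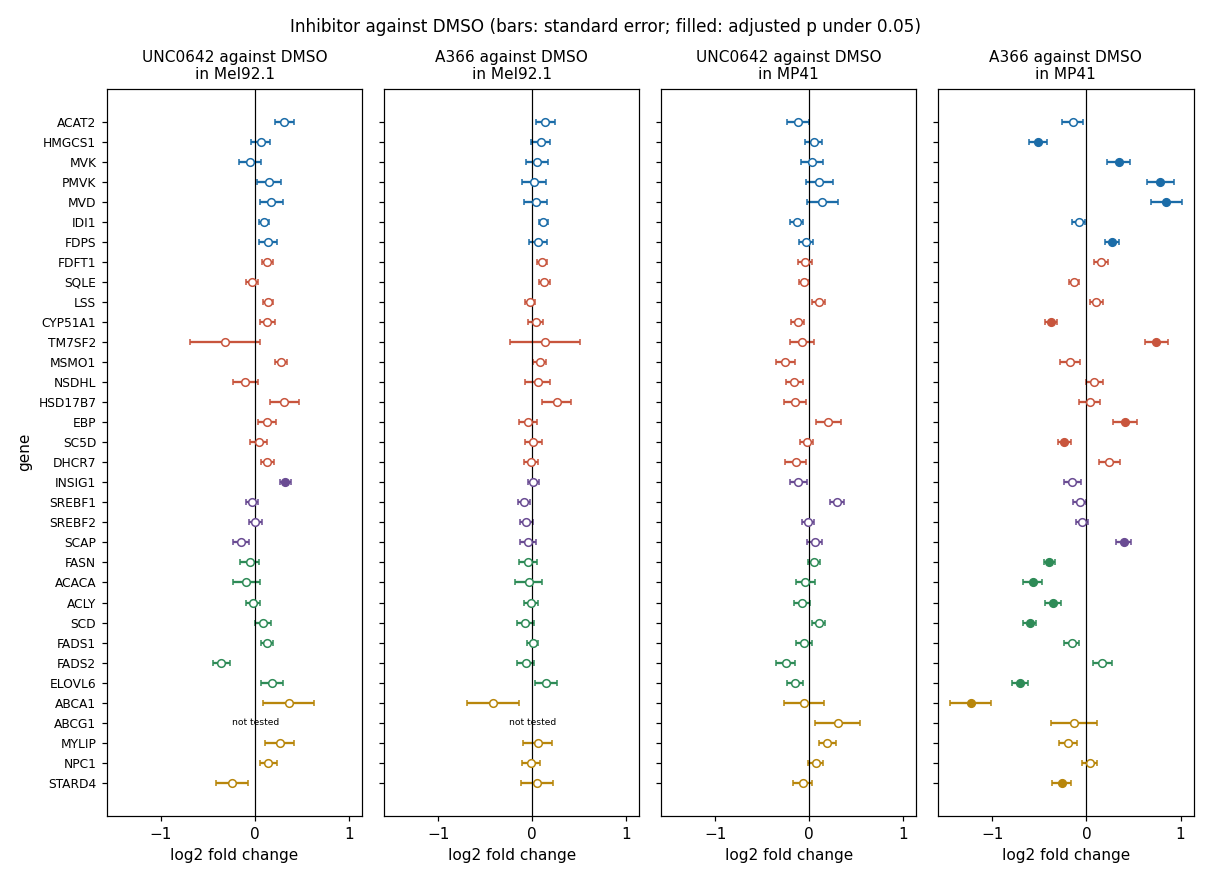
Log2 fold change of each gene (x axis) for the 4 comparisons of an inhibitor with DMSO, with the standard error as bars and filled points where the adjusted p was under 0.05. In Mel92.1 there is 1 filled point with UNC0642 (INSIG1) and 0 with A366, whereas in MP41 there are 0 and 17.

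A366 in Mel92.1 called 0 of the 33 genes tested by edgeR, beside 0.213% of all genes. One gene, IDI1, had an unadjusted p under 0.05 (log2 0.12 ± 0.051, adjusted p = 1), beside 4.32% of all genes, while DESeq2 called 0 and limma voom with sample weights 7, beside 21.2% of all genes by voom. Libraries did not overlap for 4 genes that were higher and 1 that was lower, beside 15.7% of all genes tested. The median log2 difference was 0.019 over the 33 genes and -0.0052 over all. With the libraries as labelled 0 of these genes were called (0% of all genes, 7 of the 33 at an unadjusted p under 0.05), with the 4 left out 0 (0%, 0 at an unadjusted p under 0.05) and with the offset for length and GC content 0 (0.117%, 1 at an unadjusted p under 0.05).

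A366 in MP41 gave the most calls of the 4 inhibitor comparisons with DMSO, in both directions. Of the 34 genes, 7 were called higher (22.5% of all genes tested were) and 10 lower (23.5%), 17 in all beside 46.0% of the 14956 genes tested. Libraries did not overlap for 9 genes that were higher and 10 that were lower, beside 58.0% of all genes. The median log2 difference was -0.11 over the 34 genes and 0.020 over all. With the libraries as labelled 18 of the genes were called higher and 1 lower (32.8% of all genes), and with the 4 exchanged libraries left out 6 higher and 10 lower (35.7%).

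In the mevalonate block, 4 genes rose and 1 fell. MVD stood at 5.54, 5.46 and 5.56 CPM with DMSO and at 10.6, 7.35 and 12.5 CPM with A366 (1.80-fold, log2 0.85 ± 0.16, adjusted p = 0.00178). PMVK stood at 39.9, 40.1 and 35.4 CPM with DMSO and 69.7, 55.7 and 77.0 CPM with A366 (log2 0.79 ± 0.14, adjusted p = 0.00119). HMGCS1 went the other way, from 41.4, 41.2 and 44.2 CPM to 29.3, 33.99 and 26.9 CPM (log2 -0.51 ± 0.093, adjusted p = 0.00126). None of the 3 overlapped between the groups. FDPS (log2 0.27 ± 0.075, adjusted p = 0.011) and MVK (log2 0.34 ± 0.12, adjusted p = 0.0317) also rose. FDPS was not called without MP41 A366 replicate 1 (log2 0.25, adjusted p = 0.0511). MVK was not called without MP41 A366 replicate 1 (0.34, adjusted p = 0.0874), the library labelled Mel92.1 A366 replicate 3 (0.23, adjusted p = 0.15), MP41 DMSO replicate 1 (0.38, adjusted p = 0.054) or MP41 DMSO replicate 2 (0.26, adjusted p = 0.12).

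Between squalene and cholesterol, 2 genes rose and 2 fell. TM7SF2 stood at 11.2, 11.5 and 8.996 CPM with DMSO and 19.0, 15.5 and 19.7 CPM with A366 (log2 0.74 ± 0.13, adjusted p = 0.000922), and CYP51A1 at 151, 159 and 153 CPM against 123, 127 and 112 CPM (log2 -0.38 ± 0.067, adjusted p = 0.00122). The groups did not overlap in either gene. EBP rose (log2 0.41 ± 0.13, adjusted p = 0.024) with overlapping libraries, and SC5D fell (log2 -0.24 ± 0.067, adjusted p = 0.0129). EBP was not called without MP41 A366 replicate 1 (0.38, adjusted p = 0.0792), the library labelled Mel92.1 A366 replicate 3 (0.31, adjusted p = 0.0875), MP41 DMSO replicate 1 (0.39, adjusted p = 0.0752) or MP41 DMSO replicate 3 (0.33, adjusted p = 0.102). SC5D was not called without MP41 DMSO replicate 3 (-0.22, adjusted p = 0.0574) or MP41 A366 replicate 1 (-0.23, adjusted p = 0.0544). SQLE had a log2 difference of -0.13 ± 0.053 (adjusted p = 0.0597) and LSS of 0.10 ± 0.069 (adjusted p = 0.247).

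Of the 4 SREBP regulators, SCAP alone was called, at 48.1, 51.0 and 48.3 CPM with DMSO and 64.9, 60.4 and 72.2 CPM with A366 (log2 0.40 ± 0.078, adjusted p = 0.00196). SREBF2 was at 114, 109 and 115 CPM against 106, 113 and 113 CPM (log2 -0.05, 95% interval -0.18 to 0.08, adjusted p = 0.547). SREBF1 was at 103, 103 and 98.9 CPM against 96.1, 91.2 and 108 CPM (log2 -0.07, interval -0.21 to 0.07, adjusted p = 0.436). INSIG1, at 19.1, 21.9 and 19.4 CPM against 19.9, 16.9 and 18.5 CPM (log2 -0.15, interval -0.33 to 0.03, adjusted p = 0.196), overlapped as well.

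In the fatty acid block, 5 of 7 genes were called lower and 0 higher, with a median log2 difference of -0.39. SCD stood at 610.4, 587 and 609.7 CPM with DMSO and 395, 445 and 371 CPM with A366 (log2 -0.60 ± 0.069, adjusted p = 0.00021). ELOVL6 stood at 55.3, 49.8 and 54.5 CPM against 32.3, 36.8 and 30.5 CPM (log2 -0.70 ± 0.086, adjusted p = 0.000266), and FASN at 269, 266 and 267 CPM against 195, 219.8 and 206 CPM (log2 -0.39 ± 0.063, adjusted p = 0.000763). ACACA, at 73.0, 71.6 and 75.4 CPM against 47.8, 59.1 and 43.7 CPM (log2 -0.57 ± 0.099, adjusted p = 0.00108), and ACLY, at 272, 257 and 281 CPM against 212, 236 and 197 CPM (log2 -0.35 ± 0.083, adjusted p = 0.00498), were lower in every A366 library as well. These 5 genes were called lower in each of the 9 fits without 1 library and with the 4 exchanged libraries left out. FADS1 (log2 -0.16 ± 0.084, adjusted p = 0.143) and FADS2 (log2 0.17 ± 0.098, adjusted p = 0.177) did not pass the test.

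ABCA1 had the largest fall of the 34 genes in this fit, from 4.63, 5.88 and 5.32 CPM with DMSO to 2.06, 3.06 and 1.72 CPM with A366, with no overlap (log2 -1.23 ± 0.22, adjusted p = 0.00121). STARD4 was called lower by a small margin (log2 -0.26 ± 0.10, adjusted p = 0.0484) and lost the call in 7 of the 9 fits without 1 library (log2 -0.20 to -0.35 over the 9) and with the 4 exchanged libraries left out (adjusted p = 0.0687). The libraries without which it was not called were MP41 DMSO replicates 1, 2 and 3, MP41 UNC0642 replicates 1 and 3, MP41 A366 replicate 1 and the library labelled Mel92.1 A366 replicate 3. ABCG1, at 1.25 to 2.02 CPM with DMSO and 1.40 to 1.57 CPM with A366 (log2 -0.13 ± 0.24, adjusted p = 0.68), overlapped, and NPC1 differed by 0.04 ± 0.080 (adjusted p = 0.741) and MYLIP by -0.20 ± 0.093 (adjusted p = 0.102).

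**Figure D3:**
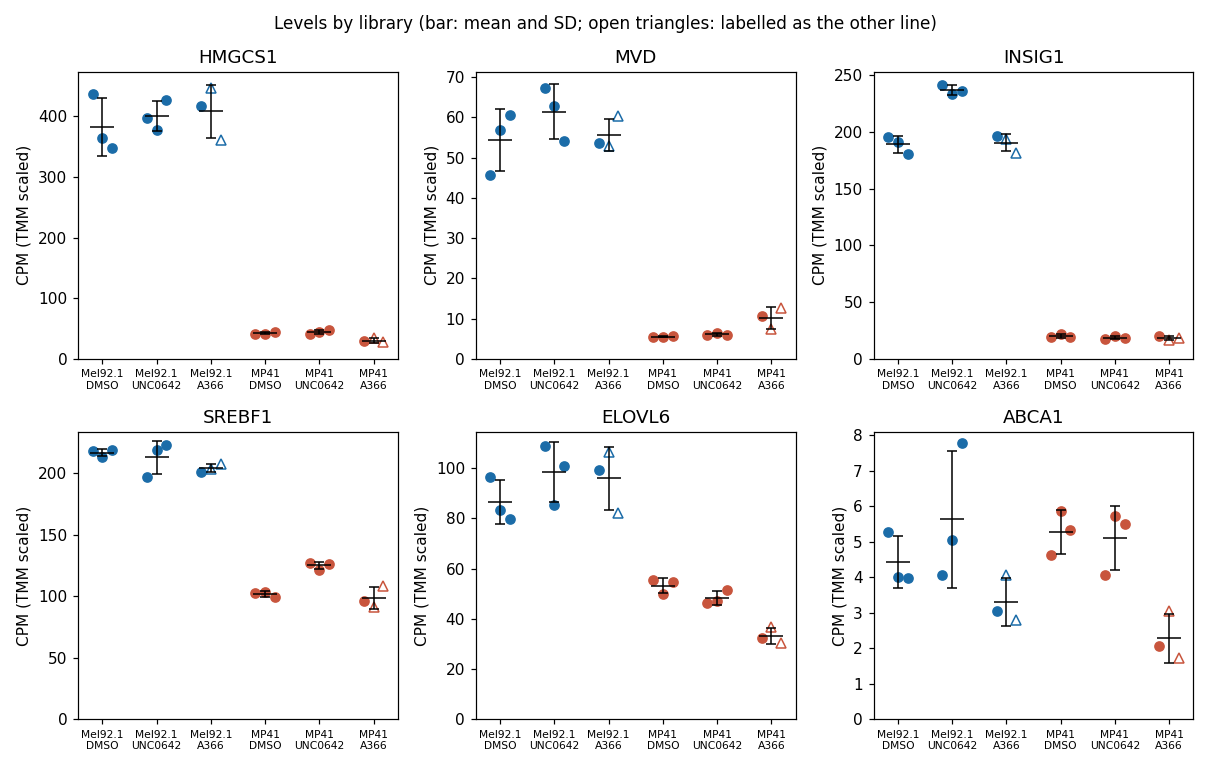
CPM in every library (y axis, from 0) for 6 of the genes in the 6 groups (x axis), with the mean and SD of the 3 libraries and open triangles for the 4 libraries labelled as the other line. HMGCS1, MVD and INSIG1 separate the lines (9.07-fold, 9.84-fold and 9.40-fold with DMSO), and HMGCS1, ELOVL6 and ABCA1 are lower with A366 in MP41.

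The A366 difference in MP41 moved with transcript length and GC content. Over the 14476 genes with both values, Spearman's rho of the log2 difference was -0.473 with the length of the longest annotated transcript and 0.460 with its GC content, and over the 34 genes it was -0.555 and 0.641. These are descriptions over genes that share the same libraries. The 7 genes called higher had transcripts of 1280 to 4394 bases (median 2094) with a median GC content of 59.5%, and the 10 called lower 2456 to 10494 bases (median 4984) with a median GC content of 43.5%. With an offset for both in the fit, 4 of the 34 genes were called higher and 13 lower, beside 35.4% of all genes. PMVK (log2 0.30, adjusted p = 0.0334), MVD (0.44, adjusted p = 0.014), TM7SF2 (0.30, adjusted p = 0.032) and SCAP (0.25, adjusted p = 0.00538) were still called higher. MVK, EBP and FDPS were not, and FDPS changed sign (-0.085, adjusted p = 0.187).

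On the same offset scale the 5 fatty acid genes kept their call, with SCD at -0.49, ELOVL6 at -0.38, FASN at -0.39, ACACA at -0.35 and ACLY at -0.40. HMGCS1 (-0.37, adjusted p = 0.00118), CYP51A1 (-0.29, adjusted p = 0.000755), SC5D (-0.21, adjusted p = 0.00932) and ABCA1 (-0.93, adjusted p = 0.00233) also kept it, while STARD4 was at 0.012 (adjusted p = 0.92). SQLE, SREBF1, NSDHL and MYLIP were called lower with the offset and not without it. Trends with length and GC content were not limited to A366 in MP41. Over all genes, rho was 0.0176 and -0.231 for A366 in Mel92.1, and 0.406 and -0.469 for the line difference in the A366 response. Single libraries placed in Mel92.1 A366 ran from 0.333 to -0.321 with length, against their DMSO mean. Those of UNC0642 in Mel92.1 ran from -0.282 to 0.15, and those placed in MP41 A366 from -0.327 to -0.509. The part of length and GC content in the differences without the offset was not tested.

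**Figure D4:**
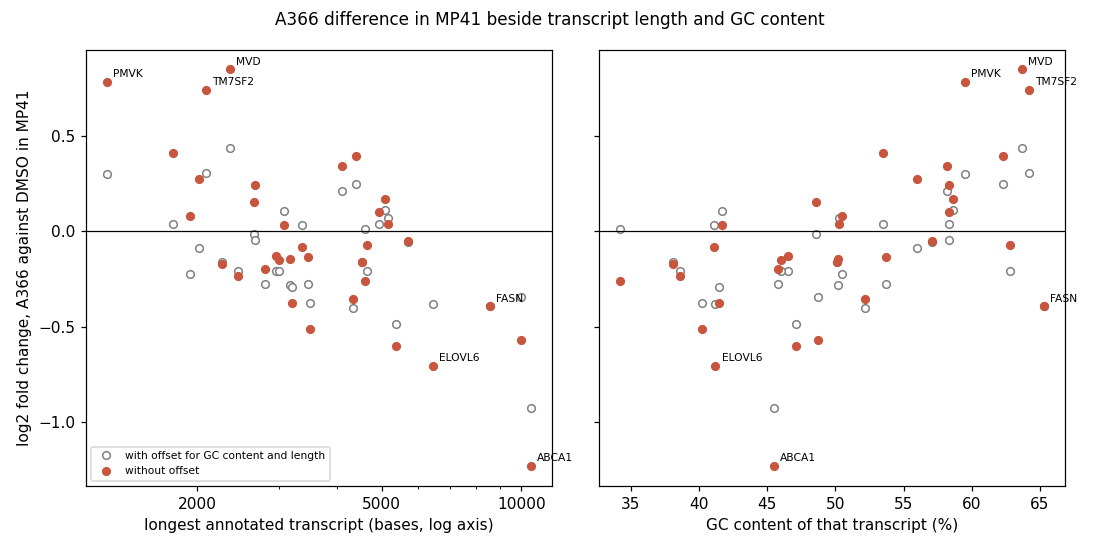
Log2 fold change of the 34 genes with A366 in MP41 (y axis) against transcript length (left, log axis) and GC content (right), without (filled) and with (open) an offset for both. Without it the values fall from 0.79 at PMVK (1280 bases) to -1.23 at ABCA1 (10494 bases), and with it these ends are 0.30 and -0.93.

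The 2 inhibitors were also compared with each other at the same dose and time, which called 20 of the genes in MP41 and 0 in Mel92.1, and their difference between the lines was not tested. In Mel92.1, 0 of 33 genes were called between A366 and UNC0642 by edgeR (0.165% of all genes), and 6 had an unadjusted p under 0.05 (7.21%). DESeq2 called 2 in Mel92.1 and limma voom 3, beside 213 and 214 of all 14528 genes. INSIG1 had a log2 difference of -0.31 there with a 95% interval of -0.42 to -0.20 (adjusted p = 0.105). Of the 20 called in MP41, 9 were higher with A366 (21.1% of all genes were) and 11 lower (22.0%), beside 43.1% in either direction. With the libraries as labelled 18 were higher and 2 lower (31.0% of all genes called), with the 4 exchanged libraries left out 6 and 11 (34.4%), and with the length and GC offset 5 and 12 (35.7%), or 3 and 12 with the replicate block added. This comparison shares its A366 libraries with the one above. SREBF1, which had not been called against DMSO, was lower with A366 (log2 -0.36 ± 0.070, adjusted p = 0.00186), as was MYLIP (-0.39 ± 0.093, adjusted p = 0.00562), while FADS2 (0.42 ± 0.099, adjusted p = 0.00509) and DHCR7 (0.38 ± 0.11, adjusted p = 0.0151) were higher. In the same edgeR fit these 4 genes were called with neither inhibitor against DMSO in MP41, though some alternative fits called them, as with SREBF1 above. With the 4 exchanged libraries left out FADS2 (adjusted p = 0.0577) and DHCR7 (adjusted p = 0.07) were not called.

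The A366 response differed between the lines for 8 of the 34 genes, 5 with a higher value in Mel92.1 (5.13% of all genes were) and 3 with a lower one (8.67%), beside 13.8% in either direction. ELOVL6 (log2 0.83 ± 0.15, adjusted p = 0.00438), HMGCS1 (0.58 ± 0.14, adjusted p = 0.0171), SCD (0.50 ± 0.12, adjusted p = 0.0124), CYP51A1 (0.39 ± 0.10, adjusted p = 0.0212) and SQLE (0.24 ± 0.075, adjusted p = 0.0454) were higher in Mel92.1 minus MP41. MVD (-0.84 ± 0.21, adjusted p = 0.0181), PMVK (-0.80 ± 0.21, adjusted p = 0.0203) and SCAP (-0.47 ± 0.11, adjusted p = 0.0156) were lower. With the length and GC offset, 0 of the 34 were called (0.658% of all genes) and 6 had an unadjusted p under 0.05. With the 4 exchanged libraries left out 1 was called, ELOVL6 (1.24% of all genes), and with the libraries as labelled 26 (49.4%). Leaving out 1 library gave 2 to 13 calls, and ELOVL6 and SCD were called in all 18 such fits. The count was 13 without Mel92.1 DMSO replicate 1 or the library labelled Mel92.1 A366 replicate 2, 5 without MP41 A366 replicate 1, 4 without Mel92.1 DMSO replicate 2 or Mel92.1 A366 replicate 1. It was 2 where Mel92.1 DMSO replicate 3 was left out, or 1 of the libraries labelled Mel92.1 A366 replicate 3 and MP41 A366 replicate 2. Calls over all genes moved too, from 621 without Mel92.1 DMSO replicate 3 to 3874 without Mel92.1 DMSO replicate 1.

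Other genes of SREBP processing and of the SREBP target set were read from the same fits. Of 14 such genes (INSIG2, MBTPS1, MBTPS2, TMEM97, ACSS2, ACSL3, ELOVL5, ME1, LPIN1, AACS, ERLIN1, ERLIN2, GGPS1 and LBR), 8 were higher and 3 lower in Mel92.1 with DMSO (34.5% and 34.8% of all genes were). With A366 in MP41 1 was higher and 6 lower (22.5% and 23.5% of all genes), with the libraries as labelled 5 and 2, with the 4 exchanged libraries left out 1 and 6, and with the offset 0 and 4. ELOVL5, a fatty acid elongase, was higher in Mel92.1 by a log2 of 1.962 ± 0.066 (adjusted p = 5.34e-14), and ACSL3, an acyl-CoA synthetase, lower (log2 -0.76 ± 0.091, adjusted p = 9.3e-07). ME1, malic enzyme, had 0 counts in all 9 libraries placed in Mel92.1 and 39.2, 41.1 and 45.0 CPM in MP41 with DMSO. Of 7 LXR and sterol handling genes (NR1H2, NR1H3, LPCAT3, SCARB1, SOAT1, NPC2 and SMPDL3A), 4 were higher and 1 lower in Mel92.1 with DMSO, 5 in all beside 69.4% of all genes. With A366 in MP41 4 were higher and 1 lower, beside 46.0% of all genes, against 2 and 1 as labelled, 2 and 1 with the 4 left out, and 1 and 0 with the offset. NR1H2 and NR1H3, which encode the 2 LXRs, were among those higher with A366 in MP41 (log2 0.57 ± 0.13, adjusted p = 0.00458, and 0.50 ± 0.15, adjusted p = 0.0177), and SOAT1, which esterifies cholesterol, was the one lower (-0.33 ± 0.076, adjusted p = 0.004). With the offset SOAT1 was not called lower, and at most 1 of NR1H2 and NR1H3 was still called higher. By edgeR and by DESeq2, none of the genes of either list was called with UNC0642 in either line or with A366 in Mel92.1, where ME1 was not tested. Limma voom called 3 genes of the first list higher and 3 of the other lower with A366 in Mel92.1, and none with UNC0642. At an unadjusted p under 0.05 edgeR had 0 with UNC0642 in Mel92.1, 1 with A366 in Mel92.1 and 2 with UNC0642 in MP41.

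GENCODE 29 places another annotated gene on the opposite strand over part of 20 of the 34 genes and on the same strand over part of 11, and reads in such stretches could be counted for either gene. FADS1 and FADS2 lie on opposite strands of one stretch of chromosome 11 (chr11:61799625-61829318 and chr11:61792980-61867354, GRCh38), and TM7SF2 (chr11:65111845-65116384) overlaps VPS51 on the same strand. The libraries were made to keep strand, and whether strand was used in counting is not given in the sources used here.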

How the data were processed

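RNA-seq of 18 libraries was read from one deposited table of expected counts per gene. The authors made these expected counts with RSEM 1.2.15 and Bowtie2 2.1.0 on hg38, per the submitters' processing notes, whereas the study's methods name mm10, TopHat and FPKM values. The annotation is not given in the sources used here. Values had decimals (5.85% to 13.4% of them per library) and were rounded. All 34 genes were in the table and 0 columns belonged to other samples.

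Counts were tested with edgeR 4.0.16 (quasi-likelihood, filterByExpr, TMM factors, R 4.3.3), with 3 libraries per group, the 9 libraries of a line in one fit and all 18 for differences between lines. P-values were adjusted over all genes tested (Benjamini-Hochberg, threshold 0.05). Errors after ± on log2 values are standard errors, and 95% intervals are the normal ones from them. These intervals can be narrower than the edgeR test implies. For INSIG2 with A366 in MP41 the interval was -0.41 to -0.0057, while the unadjusted edgeR p was 0.0664. CPM values are TMM scaled. Alternatives used DESeq2 1.42.0, limma 3.58.1 (voom with sample weights), RLE factors, library size alone, no filter, a replicate block, an offset for GC content and length from GENCODE 29 (splines with 4 degrees of freedom), only the groups compared, a fold of at least 1.5 and leaving out each library. Symbols were matched by name for 23899 genes and by synonym for 753, and 1823 were not found. Genes of 1 line alone had at least 20 CPM there and at most 0.05 CPM in the other with DMSO. In simulated data with 200 genes changed by a log2 of 1.5, the fit for A366 in MP41 (14956 genes) recovered 176 with 10 false calls, that for A366 in Mel92.1 (14528 genes) 154 with 5, and that for the A366 difference between lines (15799 genes) 134 with 8. The planted change was larger than any A366 difference that edgeR called for the genes named here with the libraries as placed. The simulated counts therefore do not show how often differences of that smaller size are found. No simulated result with a trend in length or GC content is given. Counting intervals cover counting error only.

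The genes, lists and tests were chosen with earlier results of these data known. All 34 genes are named. Values by library are given for the 12 with the smallest adjusted p among those called in an inhibitor comparison with DMSO, and for SREBF1, SREBF2 and INSIG1. One further gene of the list of LXR and sterol handling genes is not reported here.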

Additional observations from a re-analysis of the deposited data

Results flagged for a closer look

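For 8 genes the A366 response differed between the lines by the interaction test (edgeR, Benjamini-Hochberg adjustment over all genes), which marked them for a closer look. The difference, as the log2 response of Mel92.1 minus that of MP41, was 0.58 for HMGCS1, -0.80 for PMVK, -0.84 for MVD, 0.24 for SQLE, 0.39 for CYP51A1, -0.47 for SCAP, 0.50 for SCD and 0.83 for ELOVL6. Each of the 8 values includes the 4 libraries placed against their labels, and 0 of the 8 genes were called with an offset for length and GC content. The part of length and GC content was not tested.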

How the results depend on the processing

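The line difference kept its count under the alternatives (29 to 34 calls, 33 without any single library), whereas counts with the inhibitors moved. With UNC0642 in Mel92.1, the 1 call became 3 with DESeq2 and 3 with limma voom, and 0 with a fold of at least 1.5, the libraries as labelled, the 4 exchanged libraries left out, library size alone, no filter, the replicate block, the length and GC offset with or without the block, only the groups compared, or any single library left out (0 to 0). With A366 in Mel92.1 the 0 calls became 7 with voom (0 to 0 without 1 library). With UNC0642 in MP41 the 0 became 1 with the 4 left out, DESeq2, voom, the offset or only the groups compared (0 to 1 without 1 library). With A366 in MP41 the 17 became 6 with the fold and 26 with voom (12 to 21 without 1 library), and the split of 7 higher and 10 lower was 4 and 13 with the offset and 6 and 11 with library size alone. Between the inhibitors the 0 calls in Mel92.1 became 2 with DESeq2 and 3 with voom (0 to 0), and the 20 in MP41 became 5 with the fold (16 to 23). For the line difference in the UNC0642 response the 0 became 3 with DESeq2 and 3 with voom (0 to 2). For that in the A366 response the 8 became 3 with the fold, 26 as labelled, 1 with the 4 left out, 25 with voom, 2 with library size alone, and 0 with the offset with or without the block (2 to 13). The causes were not tested.

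Over all genes, calls with UNC0642 in Mel92.1 were 100 against 384 with DESeq2, 413 with voom, 18 with library size alone and 46 with the replicate block. Those for the A366 response were 2179 against 104 with the offset and 9276 with voom, and those for A366 in Mel92.1 were 31 against 171 with DESeq2 and 3087 with voom. Without 1 library, calls over all genes ran from 4797 to 7940 for A366 in MP41. They ran from 4456 to 7721 between the inhibitors in MP41, and from 621 to 3874 for the A366 response. With a fold of at least 1.5 they were 2110 of 14956 for A366 in MP41 and 1932 of 14956 between the inhibitors there. That fold left 1176 of 15799 for the A366 response and 8301 for the line difference. Voom gave 10248 for A366 in MP41 and 13140 for the line difference. Library size alone gave 6633 for A366 in MP41 and 482 for the A366 response, and the offset 130 for UNC0642 in MP41.

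Same-numbered libraries shared only a number. The correlation of their deviations was over 0.1 in 1 of 9 pairs in each line (-0.383 to 0.485 in Mel92.1, -0.152 to 0.157 in MP41). The replicate block gave 0, 0, 0 and 17 calls for the inhibitors against DMSO (UNC0642 then A366 in Mel92.1, then in MP41), 0 and 18 between the inhibitors in Mel92.1 and MP41, 31 between the lines, and 0 and 6 for the line differences in the UNC0642 and A366 responses. Over all genes the calls with the block were, in that order, 46, 10, 9, 6285, 6, 5931, 9129, 59 and 1176.

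Signs turned mostly with the libraries as labelled, where a group mixes the lines. For A366 against DMSO in MP41 the log2 values were then 2.75 for HMGCS1, 1.89 for IDI1, 0.40 for CYP51A1, -0.15 for TM7SF2, 2.29 for MSMO1, 2.74 for INSIG1, 1.18 for SREBF2, 1.89 for FASN, 0.78 for ACACA, 0.58 for ACLY, 0.85 for SCD, 0.49 for ELOVL6 and 0.61 for STARD4. With the offset (and with the block as well) they were -0.085 (-0.085) for FDPS, -0.22 (-0.22) for NSDHL and 0.012 (0.013) for STARD4. For A366 against UNC0642 in MP41 they were, as labelled, 2.71 for HMGCS1, 0.53 for CYP51A1, -0.070 for TM7SF2, 2.86 for INSIG1, 0.46 for SREBF1, 1.19 for SREBF2, 1.85 for FASN, 0.82 for ACACA, 0.66 for ACLY, 0.75 for SCD and 0.64 for ELOVL6, and -0.028 (-0.028) for NSDHL with the offset. For the A366 response they were, as labelled, -3.99 for HMGCS1, -2.87 for IDI1, -0.75 for SQLE, -0.92 for CYP51A1, -3.36 for MSMO1, -1.94 for HSD17B7, -4.00 for INSIG1, -3.11 for FASN, -1.66 for ACACA, -1.25 for ACLY, -1.82 for SCD, -1.77 for FADS1 and -1.11 for ELOVL6. Low counts limit ABCG1 in Mel92.1, at 0 to 9 per library.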
